A study of Mus musculus with 8 samples.

Results

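Dusp1, Dusp2, Dusp4, Dusp5, Dusp6 and Dusp10 encode dual-specificity phosphatases that switch off MAP kinases. They were chosen by symbol as the phosphatases that act in feedback on ERK, JNK and p38 after stimulation with PMA, and all 6 were among the 11841 gene symbols of the expression table. Each of the 6 also had enough signal to be tested, among 10281 genes with at least 1 FPKM in at least 2 libraries (FPKM, fragments counted per length of transcript and per library size). The cells were CD44+ CD4+ T cells, which are antigen-experienced helper cells, from skin-draining lymph nodes of BALB/cAJcl mice. Before RNA extraction all of them received PMA and ionomycin over 2 h, so no unstimulated level was measured. The 4 genotypes were wildtype (WT), T-bet-/- (called T-bet-null), STAT6-/- (STAT6-null) and T-bet-/- STAT6-/- (double-null), each with 2 libraries. T-bet is the factor that directs Th1 cells and STAT6 relays the signals of the IL-4 and IL-13 receptors, and the study asked what the loss of each, or of both, did to these cells.

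MAP kinases are switched on by phosphorylation of a threonine and a tyrosine in their activation loop, and a dual-specificity phosphatase removes both phosphates. In T cells PMA activates protein kinase C and RasGRP proteins and so the RAS-RAF-MEK-ERK cascade, while stress and costimulation also engage JNK and p38. Many of these phosphatases are themselves induced by the kinases they inactivate, which makes them a negative feedback and their RNA a readout that changes quickly after stimulation. DUSP1, DUSP2, DUSP4 and DUSP5 are inducible enzymes of the nucleus. DUSP6 sits in the cytoplasm and prefers ERK, and DUSP10 prefers JNK and p38.

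Of the 6 genes, 5 were lower in T-bet-null than in WT cells, 5 were lower in STAT6-null cells, all 6 were lower when both factors were missing, and none was higher. Dusp1, Dusp4, Dusp5 and Dusp10 were lower in each of the 3 mutants. Dusp6 was the least altered, with log2 fold changes of 0.03, -0.26 and -0.13, and its call in double-null cells (adjusted p = 0.0443) held in 5 of 16 alternatives. These counts stand against a large background, since 36.3%, 36.1% and 36.7% of all tested genes were called lower in these mutants in turn, 34.2%, 34.9% and 36.3% higher, and 27.2% lower in all 3 (limma, Benjamini-Hochberg adjusted p under 0.05 over all tested genes). The median log2 fold change of the 6 genes was -0.49, -0.89 and -1.04 in the same order, and that of all tested genes -0.02, -0.01 and -0.00467. Every fold change was taken on log2(FPKM + 1) in a fit over all 8 libraries.

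The targeted genes followed the labels: Tbx21, which encodes T-bet, stood at 1.44 to 2.49 FPKM in the 4 libraries labelled T-bet-/-. Among the others it stood at 30.8 and 31.6 FPKM in WT and 102 and 92.1 in STAT6-null libraries. Tbx21 was thus higher in STAT6-null than in WT cells (limma, adjusted p = 4.52e-07). Stat6 stood at 26.9 to 31.6 FPKM in the libraries labelled STAT6-/- against 88.8 to 90.9 in the others. WT libraries stood apart, with Pearson r of 0.9341 to 0.9536 to mutant libraries against 0.9829 to 0.9888 between mutants and 0.9965 to 0.9977 within genotypes (log2(FPKM + 1) over all tested genes). The labels name neither sex nor batch, so how WT cells were prepared cannot be told apart from the loss of a factor in any comparison with WT. The helper cell markers Cd3e, Cd3d, Cd3g, Cd4, Cd44, Cd2 and Cd5 were present (7 of 7), with a summed level of 2434 to 2488 FPKM in WT, 2008 to 2040 in T-bet-null, 2455 to 2464 in STAT6-null and 2086 to 2266 in double-null libraries. Within that sum Cd4 was lower in the 3 mutants than in WT (-0.77, -0.66 and -1.02, in the order of the levels just given), as were Cd3d and Cd3g, and Cd44 was higher (0.72, 0.42 and 0.50). Of 8 erythroid markers 2 were present, the haemoglobin genes Hba-a1 and Beta-s, which summed to 224 to 442 FPKM in WT and 2.63 to 7.48 in the mutants, and both were lower in each mutant. Of 6 myeloid markers 3 were present and summed to 120.6 to 121 FPKM in WT and 53.6 to 78.1 in the mutants. Most of that sum was Ctss, lower in each mutant (-1.11, -0.87 and -1.20), while Lyz2 passed as lower in T-bet-null cells (-1.44) and did not pass in the other mutants (0.41 and -0.25), and Cd68 was higher in STAT6-null (0.67) and also in double-null cells (0.45). Of 4 stromal markers 2 were present, Pecam1, lower in each mutant (-1.21, -1.54 and -1.21), and Col1a1, below the level for testing at means of 0.222 FPKM in WT and 0.427, 0.551 and 0.794 in the mutants (sum 24.2 to 26.0 against 8.15 to 11.3). B cell markers (4 of 5) summed to 2.56 to 4.43 FPKM in WT and 1.15 to 5.39 in the mutants, and CD8 and NK markers (2 of 5) to 5.15 to 5.86 and 3.47 to 4.84. The mast cell marker Kit (1 of 4) ranged from 8.11 in T-bet-null to 62.9 in double-null libraries, and Krt10 (1 of 3 keratinocyte markers) from 0.501 to 0.993 over all libraries. The other markers of these lists were not analysed here, and the part of other cells in the results below was not tested. In bulk RNA, fewer cells that express a gene and less RNA per cell cannot be told apart.

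**Figure D1:**
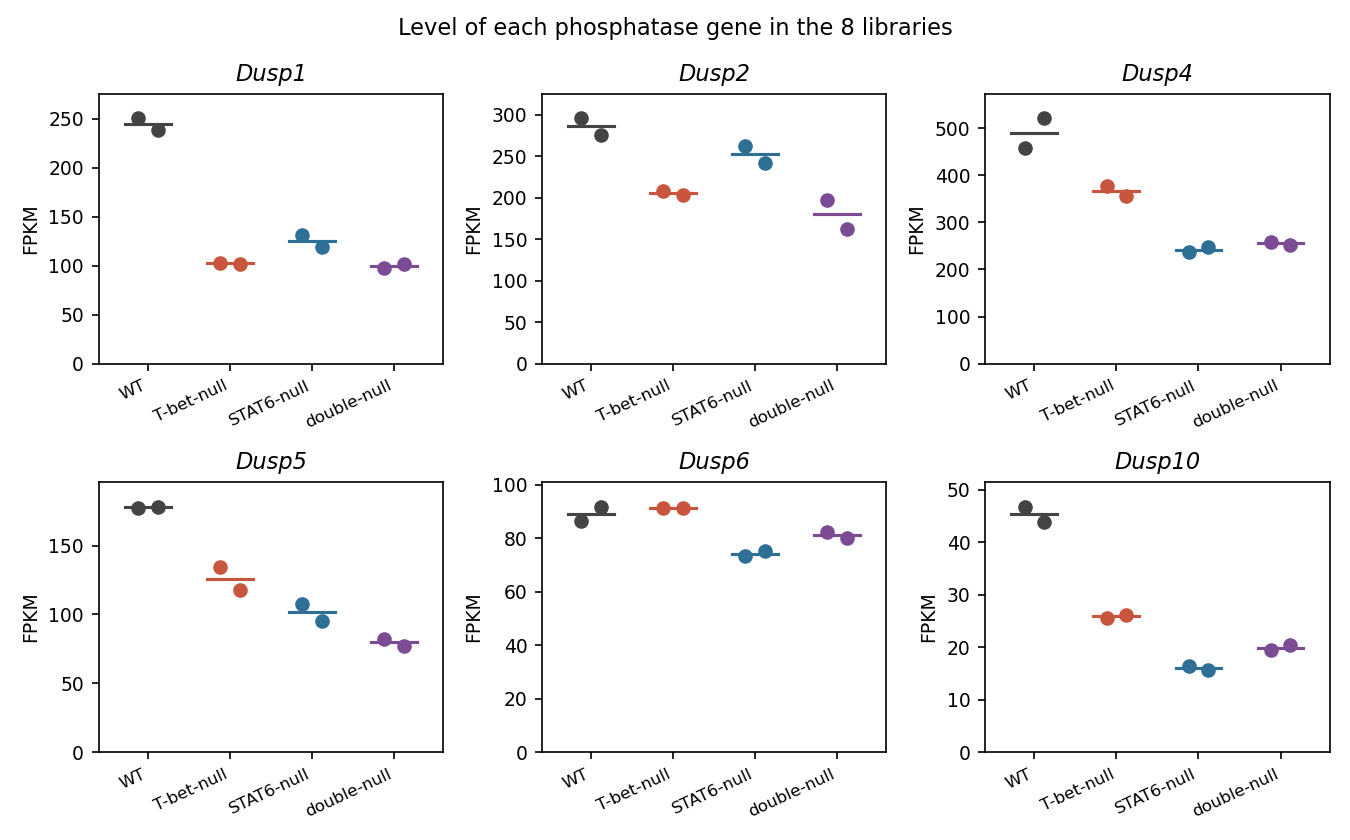
FPKM (vertical axis, from 0) of each phosphatase gene in the 2 libraries of each genotype (points), with their mean (line). WT points are above all mutant points in the panels of Dusp1, Dusp2, Dusp4, Dusp5 and Dusp10, as for 33.7% of all tested genes, while Dusp6 lies between 73.2 and 91.9 FPKM throughout.

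FPKM is scaled to transcript length, so levels can be set side by side. In WT cells Dusp4 was the highest at 489.8 ± 45.5 FPKM (mean ± SD, n = 2), then Dusp2 at 285.8 ± 14.2, Dusp1 at 245 ± 8.57, Dusp5 at 178 ± 0.895, Dusp6 at 89.1 ± 3.84 and Dusp10 at 45.3 ± 2.04. No neighbours in that order overlapped in their WT libraries. In T-bet-null cells Dusp5, at 126 ± 11.8 FPKM, stood above Dusp1, at 102 ± 1.04. In STAT6-null cells the ranges of Dusp2, at 252 ± 14.5 FPKM, and Dusp4, at 242 ± 7.14, overlapped in part. In double-null cells those of Dusp6, at 81.2 ± 1.59 FPKM, and Dusp5, at 79.7 ± 3.51, overlapped too, where WT cells held clearly more Dusp5 than Dusp6. Dusp10 had the lowest level of the 6 in every library.

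Summed over the 6 genes, the level was 1314 and 1350 FPKM in the WT libraries. The sum was 940 and 895 in T-bet-null, 828 and 794 in STAT6-null and 736 and 695 FPKM in double-null libraries. Every mutant library held less than either WT library. The make-up of the sum also differed between genotypes. Dusp1 made up 19.1% and 17.7% of it in WT, 10.9% and 11.3% in T-bet-null, 15.8% and 14.9% in STAT6-null and 13.2% and 14.6% in double-null libraries. The share of Dusp6 was 6.57% and 6.80% in WT and 11.2% and 11.5% in double-null libraries. Dusp2 held its largest share in STAT6-null libraries, 31.7% and 30.5%, against 22.5% and 20.4% in WT.

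**Figure D2:**
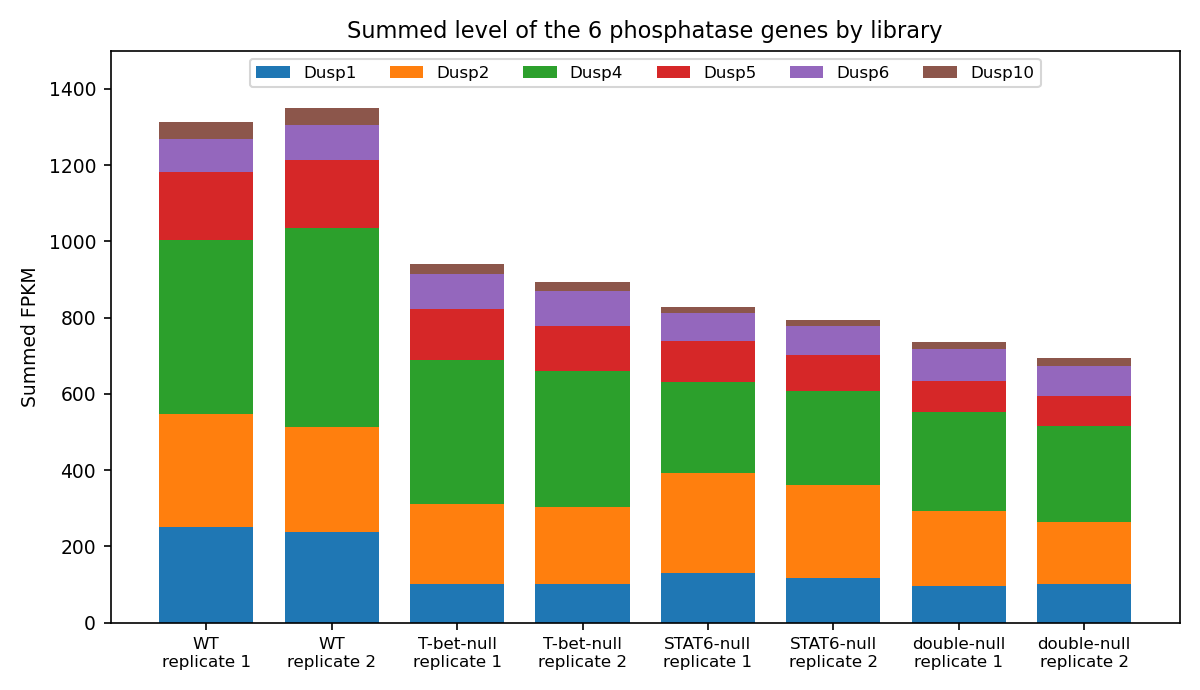
Summed FPKM of the 6 phosphatase genes (vertical axis, from 0) in each of the 8 libraries, stacked by gene. The sum falls from 1314 and 1350 FPKM in WT to 736 and 695 FPKM in double-null libraries, with T-bet-null and STAT6-null libraries between them.

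Dusp1 (mm10 chr17:26505591-26508472) encodes a nuclear phosphatase of p38, JNK and ERK and is a classical immediate early gene. Of the 6 genes, 5 had a start site in the RefSeq promoter table (assembly GRCm38.p6), Dusp4 being the other, and the 250 bases before it were searched on both strands. Those of Dusp1 (chr17:26508473-26508722, minus strand) are shown because they hold cyclic AMP response elements, bound by CREB and ATF factors. Capitals mark a full element, TGACGTCA, at -143 to -136 from the start site, and another copy of its core, TGACG, at -191 to -187:
Dusp1 promoter: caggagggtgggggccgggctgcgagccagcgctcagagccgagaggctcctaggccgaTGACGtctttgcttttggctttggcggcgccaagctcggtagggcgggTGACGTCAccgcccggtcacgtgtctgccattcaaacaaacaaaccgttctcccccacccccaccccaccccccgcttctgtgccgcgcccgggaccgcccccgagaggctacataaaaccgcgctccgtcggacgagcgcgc
The full element occurred in 1.55% of all 32851 promoters of that table and the core in 17.8%. No such full element was matched in the windows of Dusp2, Dusp5, Dusp6 and Dusp10. Letters for AP-1 (TGANTCA, 6.75% of all promoters), for STAT factors (TTCNNNGAA, 7.02%, and the form with a gap longer by a base that STAT6 prefers, 5.85%), for T-box factors such as T-bet (AGGTGTGA, 1.12%) and for a TATA box (TATAAA, 12.4%) were matched in none of the 5 windows. A match or its lack describes these letters in this window and nothing about binding.

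Dusp1 stood at 250.6 and 238 FPKM in WT, 103 and 101 in T-bet-null, 131 and 119 in STAT6-null and 97.4 and 101 in double-null libraries. All 6 mutant libraries lay below both WT libraries, as for 33.7% of all tested genes. STAT6-null was the highest among the mutants, and T-bet-null and double-null lay close together. Against WT, Dusp1 changed in T-bet-null cells by -1.25 ± 0.061 on the log2 scale (± SE, adjusted p = 5.67e-07). The change was -0.97 ± 0.061 in STAT6-null (adjusted p = 1.75e-06) and -1.29 ± 0.061 in double-null cells (2.8e-07). The fall in T-bet-null cells lay at percentile 1.58 of the log2 fold changes of all tested genes. Double-null and T-bet-null cells gave a difference of -0.04 (95% interval -0.18 to 0.10, adjusted p = 0.658). STAT6-null cells had more Dusp1 than T-bet-null (0.29, adjusted p = 0.00926) and than double-null cells (double-null minus STAT6-null -0.32, adjusted p = 0.00741). The call of STAT6-null against T-bet-null was lost without T-bet-null replicate 1 (adjusted p = 0.0521), T-bet-null replicate 2 (0.0694) or STAT6-null replicate 1 (0.0764), within a range of 0.00393 to 0.0764 over its alternatives, and that of double-null against STAT6-null without STAT6-null replicate 1 (0.0684, range 0.00275 to 0.0684). Over the 8 libraries the genes most like Dusp1 were Stx1a and Kif3c (Pearson r = 0.998 each) and Ppp6r1 (r = 0.996), a description over libraries that share genotype.

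Dusp2 (chr2:127336159-127338377) encodes a nuclear phosphatase, first found in activated lymphocytes, that acts on ERK and p38. It stood at 296 and 276 FPKM in WT, 207.5 and 203 in T-bet-null, 263 and 242 in STAT6-null and 197 and 163 in double-null libraries. WT was highest and double-null lowest. Dusp2 was lower in T-bet-null (-0.48 ± 0.089, adjusted p = 0.00122) and double-null cells (-0.67 ± 0.089, 0.000124) than in WT. In STAT6-null cells it gave -0.18 (95% interval -0.38 to 0.02, adjusted p = 0.0999), which did not pass. That value passed without double-null replicate 1 (0.0259) or 2 (0.026), and with only the groups compared (0.0498), within a range of 0.0259 to 0.378. The genotypes that lack T-bet were lowest: double-null cells had less Dusp2 than STAT6-null cells (-0.49, adjusted p = 0.00603), while double-null against T-bet-null gave -0.20 (-0.40 to 0.00477, adjusted p = 0.121). STAT6-null cells had more than T-bet-null cells (0.30, adjusted p = 0.0374).

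The 2 replicates of double-null Dusp2 were the most spread of the 6 genes (180 ± 24.2 FPKM). Without double-null replicate 1 the difference to T-bet-null passed (-0.33, adjusted p = 0.012), as it did with quantile normalization (-0.35, 0.0216), within a range of 0.012 to 0.6. The call of STAT6-null against T-bet-null was lost when any of the 4 libraries concerned was left out: 0.116 and 0.158 without T-bet-null replicates 1 and 2, and 0.192 and 0.0722 without STAT6-null replicates 1 and 2. It was also lost with quantile normalization (0.14, adjusted p = 0.289) and with no intensity trend (0.0518), within a range of 0.00531 to 0.289. That of double-null against STAT6-null was lost without STAT6-null replicate 1 (0.0577, range 0.00162 to 0.0577). The genes most like Dusp2 were H2-Q4, a class I histocompatibility gene (r = 0.984), Rap2a, a small GTPase (0.982), and Cbx7, a Polycomb protein gene (0.98), over the 8 libraries.

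Dusp4 (chr8:34807610-34819894) encodes a nuclear phosphatase of ERK and JNK and was the most abundant of the 6 in WT. It stood at 458 and 522 FPKM in WT, 378 and 356 in T-bet-null, 237 and 247 in STAT6-null and 258 and 253 in double-null libraries. By mean level the order was WT, T-bet-null, double-null and STAT6-null, and the last pair lay close together. Dusp4 fell relative to WT, with log2 fold changes of -0.41 ± 0.071 in T-bet-null (adjusted p = 0.000753), -1.01 ± 0.071 in STAT6-null (adjusted p = 3.06e-06) and -0.93 ± 0.071 in double-null cells (3.9e-06). It was lower in STAT6-null (-0.60, adjusted p = 0.000462) and double-null cells (-0.52, 0.00106) than in T-bet-null cells. Double-null against STAT6-null gave 0.08 (-0.08 to 0.24, adjusted p = 0.483). All of these calls of Dusp4 held in every alternative run. The genes most like it were 1810006J02Rik (r = 0.994), Ets1, an ETS factor that ERK phosphorylates (0.993), and Zfp516 (0.992).

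Dusp5 (chr19:53529145-53541809) encodes a nuclear phosphatase that is specific for ERK and is induced through serum response factor. The 250 bases before its start site (chr19:53528895-53529144, plus strand) are shown because they hold a pair of adjacent CArG boxes, the sequence that serum response factor binds. Capitals mark the boxes at -82 to -73 and -72 to -63, followed by the core of the cyclic AMP response element, CGTCA on this strand, at -55 to -51:
Dusp5 promoter: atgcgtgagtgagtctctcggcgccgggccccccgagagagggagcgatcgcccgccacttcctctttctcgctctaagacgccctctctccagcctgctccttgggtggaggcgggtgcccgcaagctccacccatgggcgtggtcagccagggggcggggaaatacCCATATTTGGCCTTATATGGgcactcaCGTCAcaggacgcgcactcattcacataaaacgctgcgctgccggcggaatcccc
A CArG box occurred in 1.47% of all promoters of the table and in none of the other 4 members' windows.

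Dusp5 stood at 177 and 178 FPKM in WT, 134 and 118 in T-bet-null, 108 and 95.1 in STAT6-null and 82.2 and 77.2 in double-null libraries. This is a stepwise order in which the double-null libraries were lowest. Dusp5 fell relative to WT, with log2 fold changes of -0.50 ± 0.080 in T-bet-null (adjusted p = 0.000502), -0.81 ± 0.080 in STAT6-null (adjusted p = 2.33e-05) and -1.15 ± 0.080 in double-null cells (2.2e-06). All 3 differences between mutants passed too: double-null cells were lower than T-bet-null (-0.65, adjusted p = 0.000617) and STAT6-null cells (-0.34, 0.0186), and STAT6-null lower than T-bet-null cells (-0.31, 0.0209). The call of double-null against STAT6-null was lost without STAT6-null replicate 1 (adjusted p = 0.137) or double-null replicate 2 (0.0898), within 0.00944 to 0.137. The call of STAT6-null against T-bet-null was lost without T-bet-null replicate 1 (0.152) or STAT6-null replicate 2 (0.144), within 0.00748 to 0.152. The genes most like Dusp5 were Card6 (r = 0.990) and Hs6st1, a heparan sulfate sulfotransferase (0.990).

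Dusp6 (chr10:99263231-99267489) encodes the cytoplasmic, ERK-selective phosphatase of the set, and its RNA is often used as a readout of ERK activity. It stood at 86.4 and 91.9 FPKM in WT, 91.4 and 91.2 in T-bet-null, 73.2 and 75.2 in STAT6-null and 82.3 and 80.1 in double-null libraries. The T-bet-null libraries fell inside the WT range, and both STAT6-null libraries were below all others. In T-bet-null cells Dusp6 gave 0.03 against WT (95% interval -0.08 to 0.15, adjusted p = 0.563), with a lower bound above the fitted value of each of the other 5 genes. In STAT6-null cells it was lower than in WT (-0.26 ± 0.052, adjusted p = 0.00166) and than in T-bet-null cells (-0.30, 0.00343). Double-null against STAT6-null gave 0.13 (0.01 to 0.25, adjusted p = 0.119).

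The remaining calls of Dusp6 were the least firm of the set. In double-null cells it was lower than in WT (-0.13 ± 0.052, adjusted p = 0.0443) and than in T-bet-null cells (-0.17 ± 0.052, 0.0378). The call against WT held in 5 of 16 alternatives (adjusted p 0.0133 to 0.196) and that against T-bet-null in 6 of 16 (0.00994 to 0.158). Leaving out WT replicate 2 (0.196), T-bet-null replicate 1 (0.0792) or 2 (0.0793), STAT6-null replicate 1 (0.0649) or 2 (0.065), or double-null replicate 1 (0.0546) or 2 (0.134) ended the call against WT. For T-bet-null the same was true of T-bet-null replicate 1 (0.151) or 2 (0.158), STAT6-null replicate 1 (0.06) or 2 (0.0602), and double-null replicate 1 (0.0503) or 2 (0.133). RefSeq places Gm34921, a long non-coding RNA gene not analysed here, across the end of Dusp6, and the sources used here do not state strandedness, so reads of the shared stretch cannot be told apart. The genes most like Dusp6 were Arid1a, a subunit of the SWI/SNF remodelling complex (r = 0.975), AI314180 (0.971) and Dst (0.969).

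Dusp10 (chr1:184034381-184075636) encodes the phosphatase of the set that prefers JNK and p38. It stood at 46.8 and 43.9 FPKM in WT, 25.6 and 26.1 in T-bet-null, 16.3 and 15.6 in STAT6-null and 19.5 and 20.3 in double-null libraries. WT libraries were highest and STAT6-null libraries lowest. Dusp10 fell relative to WT, with log2 fold changes of -0.79 ± 0.057 in T-bet-null (adjusted p = 4.22e-06), -1.45 ± 0.057 in STAT6-null (adjusted p = 1.92e-07) and -1.15 ± 0.057 in double-null cells (3.44e-07). The fall in STAT6-null cells was the largest of any of the 6 genes in the comparisons with WT and lay at percentile 1.32 of all tested genes. Dusp10 was lower in STAT6-null than in T-bet-null cells (-0.66, adjusted p = 6.77e-05) and in double-null cells (-0.36 against T-bet-null, 0.00211). It was the one member that was higher in double-null than in STAT6-null cells (0.30, adjusted p = 0.00733), a call lost without STAT6-null replicate 2 (0.0567, range 0.00504 to 0.0567). The genes most like Dusp10 were Ckb, a creatine kinase (r = 0.998), Aspm, a spindle protein gene (0.998), and Nup210, a nuclear pore gene (0.997).

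**Figure D3:**
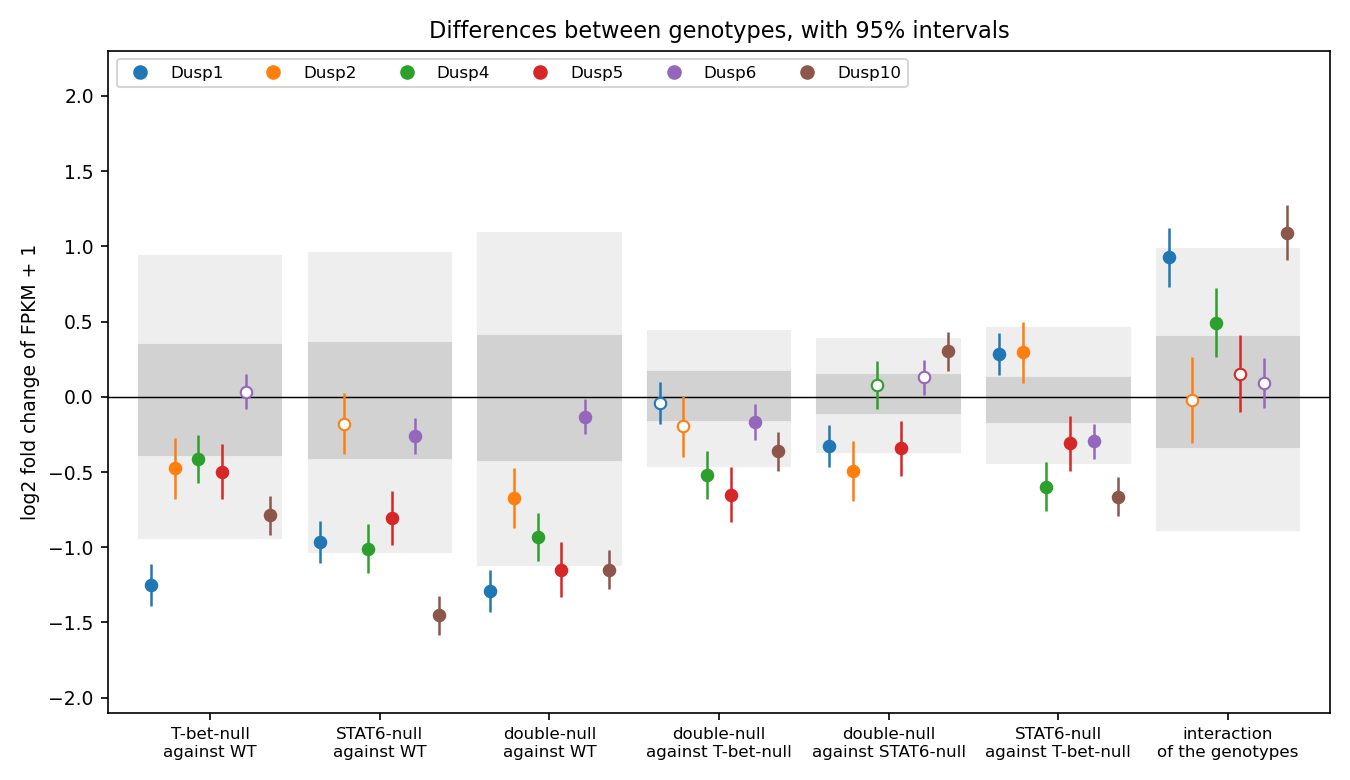
Log2 fold change of FPKM + 1 (vertical axis) of the 6 genes in each comparison, with 95% intervals; filled points passed an adjusted p under 0.05 and open points did not. Grey bands hold percentiles 25 to 75 (dark) and 5 to 95 (light) of all tested genes; Dusp1 in T-bet-null (-1.25) and Dusp10 in STAT6-null cells (-1.45) are among the points below the light band.

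Among the mutants the 6 genes did not move as a block. Between double-null and T-bet-null cells 4 were lower and none higher, where 16.2% of all tested genes were called lower, though the call of Dusp6 among them held in 6 of 16 alternatives. Between double-null and STAT6-null cells 3 were lower and 1 higher, where 8.63% and 11.3% were called. Between STAT6-null and T-bet-null cells 4 were lower and 2 higher, where 14.9% and 12.3% were called. The genes that set STAT6-null below T-bet-null cells were Dusp4, Dusp5, Dusp6 and Dusp10, and those in the other direction were Dusp1 and Dusp2. Across the 8 libraries, WT included, Dusp4 and Dusp10 were the most alike pair (Pearson r = 0.958), then Dusp4 and Dusp5 (0.917), while Dusp2 and Dusp6 gave -0.00352. High r was common: 98.3% of all tested genes had a lower r with Dusp4 than Dusp10 had, and 94.1% a lower r than Dusp5 had. These correlations rest on 4 genotypes with 2 libraries each and are a description.

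Was the difference by STAT6 genotype the same where T-bet was missing? The interaction takes the difference of double-null and T-bet-null cells and subtracts that of STAT6-null and WT cells. It was above 0 and passed for Dusp10 (1.09 ± 0.081, adjusted p = 2.14e-05), Dusp1 (0.93 ± 0.087, 5.92e-05) and Dusp4 (0.49 ± 0.101, 0.00307), so 3 of 6, where 29.6% of all tested genes were called above 0 and 27.7% below. For Dusp1 the difference by STAT6 genotype was -0.97 with T-bet and -0.04 without it, so double-null and T-bet-null levels were close. For Dusp10 it was -1.45 with T-bet and -0.36 without it, and for Dusp4 -1.01 and -0.52. The other 3 did not pass: Dusp5 gave 0.15 (95% interval -0.10 to 0.41, adjusted p = 0.268), Dusp6 0.09 (-0.07 to 0.26, 0.299) and Dusp2 -0.02 (-0.30 to 0.27, 0.912). Dusp5 fell by a similar amount on both backgrounds, -0.81 and -0.65, though the interval leaves room for a difference. All 7 comparisons share libraries, and the interaction includes the WT libraries that stood apart. STAT6-null and WT cells, which both have T-bet, differed in Tbx21 RNA, and the part of that difference was not tested.

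Other genes of the MAP kinase pathway, from lists written down by function, give the setting. Of 10 tested genes for other dual-specificity phosphatases and their relatives, 4 were higher and 5 lower in T-bet-null cells, 3 and 5 in STAT6-null and 3 and 6 in double-null cells. Dusp14, which acts on TAB1 and MAP kinases in T cells, was the most abundant of these 10 genes in WT (232 ± 9.58 FPKM). Its libraries were at 80.3 and 73.1 FPKM in T-bet-null, 111 and 114.5 in STAT6-null and 109.5 and 122 in double-null cells. All lay below the WT libraries at 239 and 226, as for 33.7% of all tested genes (log2 -1.59, -1.03 and -1.001 in the same order). Dusp14 was higher in STAT6-null (0.55, adjusted p = 0.000658) and double-null cells (0.59, 0.000548) than in T-bet-null cells, and its interaction was 1.62 (adjusted p = 1e-05). Dusp16, a phosphatase of JNK and p38, was lower in the 3 mutants (-0.89, -1.17 and -1.33), and double-null cells had less of it than T-bet-null cells (-0.45, adjusted p = 0.00112). Dusp12, an atypical member, rose by 1.13, 1.02 and 1.03 in the 3 mutants.

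Kinases upstream of the phosphatases went both ways. So did all tested genes, with 34.2%, 34.9% and 36.3% called higher and 36.3%, 36.1% and 36.7% lower in the same order of mutants. Of 15 tested genes of the ERK module, 5 were higher and 5 lower in T-bet-null, 4 and 6 in STAT6-null and 2 and 6 in double-null cells. Rasgrp1, which couples diacylglycerol and PMA to RAS, was lower in all 3 mutants, at -0.87 in T-bet-null (adjusted p = 2.3e-06), -0.76 in STAT6-null (adjusted p = 3.89e-06) and -1.01 in double-null cells (5.91e-07). The scaffold gene Ksr1 was higher in all 3 (1.76, 1.86 and 2.10), and Mapk3, which encodes ERK1, was lower in all 3 too (-0.63, -0.77 and -0.47). Of 6 protein kinase C genes, 2 were higher and 3 lower in T-bet-null cells, and 1 and 4 in both other mutants, with Prkca at -0.54, -0.998 and -0.76 and Prkch at 0.73, 0.88 and 0.92. The JNK module (7 tested) had 3 higher and 3 lower, 2 and 3, and 3 and 3 genes, with Map3k1 at -0.84, -0.84 and -1.01. The p38 module (12 tested) had 5 and 5, 6 and 3, and 6 and 4. In it Map3k5, which encodes the stress kinase ASK1, was higher (1.37, 1.84 and 1.79) and Map2k6, an activator of p38, lower (-1.38, -1.35 and -1.46) in the 3 mutants.

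Other feedback inhibitors of RAS and ERK went both ways. Of 11 tested, 6 were higher and 5 lower in T-bet-null cells, and 5 and 4 in both STAT6-null and double-null cells, beside 34.2%, 34.9% and 36.3% of all tested genes called higher and 36.3%, 36.1% and 36.7% lower in these mutants in turn. Spred1, which restrains RAS and RAF, was higher in each (1.13, 1.28 and 1.23), as was Rasa1, a RAS GTPase-activating protein gene (0.79, 0.86 and 0.58). Rasa3 (-0.54, -1.15 and -1.08) and Dok2 (-0.84, -0.78 and -0.90) were lower in each. Among 10 factors that MAP kinases act on, 2 were higher and 7 lower, 3 and 6, and 3 and 5, with Ets2 at -1.02, -1.15 and -1.41.

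Immediate early genes, many of which ERK and the other MAP kinases help to induce, were mostly lower. Kinase activity was not measured. Of the 21 tested, 1 was higher and 20 lower in T-bet-null, 2 and 14 in STAT6-null and 2 and 17 in double-null cells, beside the 36.3%, 36.1% and 36.7% of all genes called lower. Their medians were -0.64, -0.62 and -0.41. The largest falls were those of Fosb (-1.78, -2.01 and -1.95) and Egr3 (-1.69, -1.99 and -1.92), and Ier3 was higher in the 3 mutants (1.67, 1.68 and 1.76). The interaction was above 0 for 15 of 21 and below 0 for 1 (29.6% and 27.7% of all tested genes). Its median was 0.69 against 0.01 for all tested genes, where that of the 6 phosphatases was 0.32. The term includes the WT libraries that stood apart, and the part of that offset was not tested. Comparisons between mutants leave WT out of the difference, though not out of the shared estimate of spread. In double-null against T-bet-null cells 4 immediate early genes were higher and 2 lower (16.4% and 16.2% of all tested genes). The medians were -0.02 for the immediate early genes and -0.28 for the 6 phosphatases. In double-null against STAT6-null cells 2 were higher and 5 lower (11.3% and 8.63% of all tested), with medians of -0.12 for both sets. In STAT6-null against T-bet-null cells 8 were higher and 4 lower (12.3% and 14.9% of all tested), with medians of 0.02 and -0.30.

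**Figure D4:**
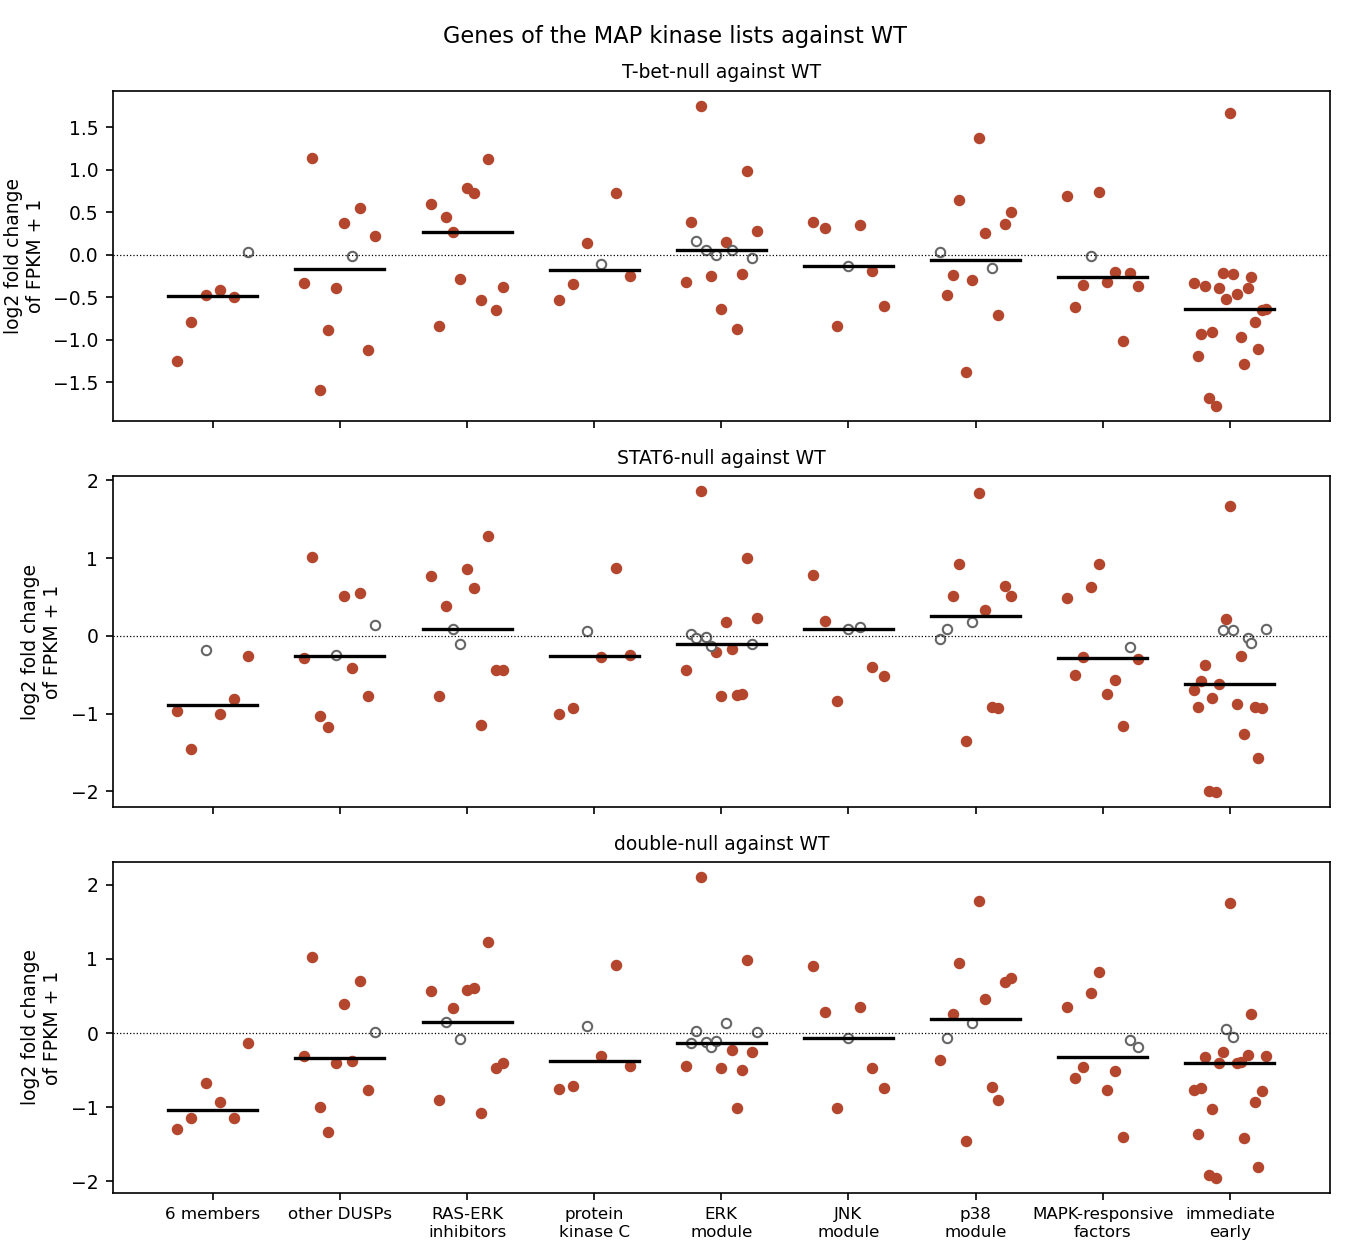
Log2 fold change of FPKM + 1 against WT (vertical axes) for each tested gene of the 6 phosphatases and 8 MAP kinase lists in the 3 mutants; filled points passed an adjusted p under 0.05, open points did not, and bars are medians. The 6 phosphatases (medians -0.49, -0.89 and -1.04) and the immediate early genes (-0.64, -0.62 and -0.41) lie mostly below 0, while the kinase modules scatter on both sides.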

How the data were processed

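RNA from 8 libraries of sorted CD44+ CD4+ T cells, 2 for each of 4 genotypes by their own labels, was read from 1 table of FPKM values deposited by the authors. Per the submitters' processing notes Cufflinks and build mm10 were used; the sources used here name no aligner, version or strandedness. All 11906 lines exceed 0.1 FPKM in every library. For 43 symbols on several lines the highest mean was kept, and 17 date-like names stayed unnamed. Relative depth was estimated from 500 genes under 0.5 FPKM in every library, by their most common ratio to WT replicate 1. It was 0.856 to 1.04, with 9 to 28 genes at that ratio in each other library. Whole steps in all libraries were met by 160 genes. Of these, 67 with a single transcript put WT replicate 1 near 20300000 fragments (quartiles 18300000 and 21400000). No count test was run.

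Values were tested as log2(FPKM + 1) with limma 3.58.1 (R 4.3.3), genotype means, intensity trend, 4 residual degrees of freedom, two-sided, adjusted over 10281 genes in each of 7 comparisons. A check on simulated data shifted a small set of genes in T-bet-null libraries only. It held no offset of the WT libraries, so it does not cover that feature of these data. Python 3.11.15 searched promoters. The members and lists were chosen with earlier results of these data known. In each list the named genes are among the 3 largest called changes; likeness is the 3 highest Pearson r with a member, of which the third for Dusp5 is not reported here. Nothing says that libraries came from separate animals, so p-values measure only spread among these libraries, possibly technical. Alternatives were another pseudocount, filter, scaling, prior, sample set, a replicate block and leaving out each library.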

Additional observations from a re-analysis of the deposited data

Results flagged for a closer look

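For 3 of the 6 phosphatase genes the difference by STAT6 genotype was not the same in T-bet-null and T-bet-sufficient cells. This rests on the interaction term of the limma fit. The term subtracts the log2 difference in T-bet-sufficient cells from that in T-bet-null cells. It was 0.926 for Dusp1 (adjusted p = 5.92e-05), 0.4916 for Dusp4 (0.00307) and 1.09 for Dusp10 (2.14e-05). Of all tested genes, 29.6% were called above 0 and 27.7% below. In all 3 genes all 6 mutant libraries were below both WT libraries, as for 33.7% of all tested genes. All 3 calls held in each of the 15 alternatives run, with ranges of 0.82 to 0.997, 0.40 to 0.59 and 1.04 to 1.14. The term includes the WT libraries, which stood apart from all mutants, and the part of that offset was not tested. The T-bet-sufficient cells are WT and STAT6-null cells, and Tbx21 RNA was higher in STAT6-null than in WT cells. The part of that difference was not tested either.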

How the results depend on the processing

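Of 666 values of single members under the alternatives, 619 kept their direction and side of the threshold, 37 lost a call, 6 gained one and 4 changed sign, none of them called. These were Dusp2 in the interaction without WT replicate 2 (0.03), STAT6-null replicate 1 (0.04) or double-null replicate 2 (0.12), range -0.16 to 0.12, and Dusp6 in T-bet-null against WT without WT replicate 1 (-0.00865), range -0.00865 to 0.0784. With 1 library left out, the number of members called was 3 to 6 for STAT6-null against T-bet-null and 1 to 4 for double-null against STAT6-null, and the genes called of all tested were 1443 to 3084 and 840 to 2074 for these and 1631 to 3308 for double-null against T-bet-null; these fits hold fewer samples, and a lone library is assumed to vary like the other groups. Replicate numbers did not pair the libraries: deviations of same-numbered libraries correlated at -0.09 to 0.09. With the replicate block, members called against WT were 5, 6 and 5 (T-bet-null, STAT6-null, double-null). Between mutants 3, 4 and 6 were called (double-null against T-bet-null and STAT6-null, STAT6-null against T-bet-null), and 3 for the interaction. Of 10281 tested genes the main fit called 7255, 7300 and 7509 against WT in the same order. It called 3351, 2044 and 2799 between mutants and 5889 for the interaction. Shares of all tested genes under the block are not reported here. With the block Dusp6 lost its calls for double-null against WT (adjusted p = 0.0563) and T-bet-null (0.0514), and Dusp2 passed in STAT6-null (0.0448). Median-of-ratios scaling ended the same calls of Dusp6 (0.163 and 0.0663). The table holds genes above 0.1 FPKM in every library, so genes silent in any genotype are not analysed here.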
